A study of Mus musculus with 10 samples.

Results

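UDP-glucuronosyltransferases and carboxylesterases are the large enzyme families with which the liver conjugates and hydrolyses drugs, hormones and lipids. They were taken as every gene whose symbol begins with Ugt1, Ugt2 or Ugt3, or with Ces1 to Ces5. This gave 39 of the 24052 genes listed, of which 20 were UDP-glucuronosyltransferases and 19 were carboxylesterases. RNA had been sequenced from the livers of 5 wild-type mice and 5 mice with a liver-specific deletion of Ndrg3 (Ndrg3 LKO), all on the C57BL/6 background and fed ad libitum, with 1 library per liver. In the Ndrg3 LKO mice, exon 4 of Ndrg3 lay between loxP sites and was removed by Cre recombinase under the albumin promoter, which is active mainly in hepatocytes. The controls were littermates called wild-type. The methods describe a final mating of heterozygous floxed mice carrying Cre with homozygous floxed mice, from which every littermate would inherit a floxed allele. Whether the controls carried Cre was not given in the sources used here. The study's methods give male mice, unless otherwise mentioned, and an age of 8 to 10 weeks for these livers, while one of its legends gives 10 to 12 weeks.

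UDP-glucuronosyltransferases sit in the endoplasmic reticulum and attach the sugar of UDP-glucuronic acid to small lipophilic molecules, which makes them soluble enough to leave in bile or urine. Bilirubin, steroids, bile acids, thyroid hormone and many drugs are cleared this way. Carboxylesterases sit mostly in the same compartment and cut ester and amide bonds, so they activate or inactivate ester drugs, and several of them also hydrolyse triacylglycerol and cholesteryl esters. In rodents both families have grown into tandem clusters of similar genes that hepatocytes express at high levels.

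The libraries held 20872262 to 24747870 counts in wild-type and 23474693 to 30450057 counts in Ndrg3 LKO livers. Levels are given as CPM, the count of a gene scaled to a common library total, after TMM adjustment, which sets the bulk of genes to a common centre. Ndrg3 itself measured 15.9 to 21.9 CPM in wild-type and 7.08 to 9.18 CPM in Ndrg3 LKO livers, with a log2 fold change of -1.20 (SE 0.13, edgeR adjusted p = 3.87e-05). Ndrg3 LKO replicate 5 stood apart from the other 4 of its group. The 20 most abundant genes held 16.3% to 17.3% of the counts in Ndrg3 LKO replicates 1 to 4, 26.6% in replicate 5 and 26.2% to 28.02% in wild-type livers. The 12 general hepatocyte genes examined, such as Alb and Apoa1, summed to 173916 to 211238 CPM in wild-type livers, 50965 to 62719.9 CPM in Ndrg3 LKO replicates 1 to 4 and 192029 CPM in replicate 5. Fold changes of the members tested are therefore given for all 10 livers and again for the 9 livers without replicate 5, and those of other named genes are given again where the call differed. The legend of the study's own RNA figure gives 4 Ndrg3 LKO livers, and it does not say which of the deposited libraries these were.

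The clusters are described in the order of the mouse assembly mm9, in which the 8 Ugt1a genes span chr1:89951963-90116577, the Ugt2a and Ugt2b genes chr5:87318792-87919896, the 2 Ugt3a genes chr15:9209584-9300710, the Ces1 genes chr8:95544113-95861207, and the Ces2, Ces3 and Ces4a genes chr8:107257903-107674009. Promoter sequences from RefSeq (build GRCm38.p6, from 250 bases before to 50 bases after the start of the gene) were found for 32 members. Each of the 32 matched its own chromosome of mm9 at exactly 1 place on its own strand. Other chromosomes and the other strand were not searched. Ugt1a6b, Ugt3a2, Ces1d, Ces1f, Ces2b, Ces2d-ps and Ces3a had none.

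The promoters of Ugt2b5, Ugt2b37 and Ugt2b38 are shown because these 3 neighbours have similar sequences and different values below. That of Ugt2b38 (chr5:87853179-87853478, minus strand) was 87.3% identical to that of Ugt2b37 (chr5:87683764-87684063, minus strand) and 84.2% identical to that of Ugt2b5 (chr5:87569316-87569615, minus strand), counting gaps as differences. Capitals mark a core motif of the FOXA liver factors, TGTTTAC, here read on the other strand.
Ugt2b5: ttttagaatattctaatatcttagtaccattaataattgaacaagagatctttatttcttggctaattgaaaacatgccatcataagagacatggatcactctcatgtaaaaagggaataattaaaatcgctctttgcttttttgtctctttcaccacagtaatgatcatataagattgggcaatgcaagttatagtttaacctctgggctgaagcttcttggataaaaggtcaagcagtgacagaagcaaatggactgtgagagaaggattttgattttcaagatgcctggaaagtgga
Ugt2b37: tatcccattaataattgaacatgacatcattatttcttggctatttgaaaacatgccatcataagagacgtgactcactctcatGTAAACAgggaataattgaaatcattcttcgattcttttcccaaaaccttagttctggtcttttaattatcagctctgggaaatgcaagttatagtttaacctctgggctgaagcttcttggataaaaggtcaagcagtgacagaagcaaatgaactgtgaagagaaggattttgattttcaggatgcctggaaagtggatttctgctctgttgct
Ugt2b38: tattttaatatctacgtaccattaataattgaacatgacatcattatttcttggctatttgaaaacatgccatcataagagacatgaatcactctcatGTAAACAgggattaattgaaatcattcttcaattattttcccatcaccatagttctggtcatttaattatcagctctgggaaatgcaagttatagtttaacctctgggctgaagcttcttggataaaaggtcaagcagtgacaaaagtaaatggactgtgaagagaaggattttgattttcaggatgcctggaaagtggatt

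The promoters of 4 members that fell are shown next. They are Ugt2b1 (chr5:87355479-87355778, minus strand) and Ugt2a3 (chr5:87766171-87766470, minus strand), both of the Ugt2 cluster, Ugt3a1 (chr15:9209334-9209633, plus strand) and Ces3b (chr8:107607405-107607704, plus strand). Capitals mark a TATA box, TATAAA, in that of Ces3b. In the other 3, the search described below found no motif. It counted TATAAA only within a set stretch before the start of the gene. The letters tataaa do occur in the promoter of Ugt3a1, outside that stretch, and are not in capitals.
Ugt2b1: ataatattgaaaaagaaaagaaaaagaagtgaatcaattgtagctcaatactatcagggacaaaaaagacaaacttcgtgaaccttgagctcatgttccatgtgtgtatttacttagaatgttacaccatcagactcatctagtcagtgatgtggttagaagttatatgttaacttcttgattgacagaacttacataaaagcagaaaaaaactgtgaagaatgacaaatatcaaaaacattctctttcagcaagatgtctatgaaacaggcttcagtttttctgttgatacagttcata
Ugt2a3: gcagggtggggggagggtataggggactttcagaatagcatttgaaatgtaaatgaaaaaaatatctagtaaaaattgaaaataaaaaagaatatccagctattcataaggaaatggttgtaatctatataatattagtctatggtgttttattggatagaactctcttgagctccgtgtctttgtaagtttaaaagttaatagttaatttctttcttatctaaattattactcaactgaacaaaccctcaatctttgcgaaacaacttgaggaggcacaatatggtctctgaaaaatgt
Ugt3a1: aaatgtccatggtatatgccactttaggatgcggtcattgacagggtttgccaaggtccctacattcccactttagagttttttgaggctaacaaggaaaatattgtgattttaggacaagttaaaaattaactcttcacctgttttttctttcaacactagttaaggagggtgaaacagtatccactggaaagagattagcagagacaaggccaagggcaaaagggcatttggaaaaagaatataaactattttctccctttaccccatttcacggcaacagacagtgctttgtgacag
Ces3b: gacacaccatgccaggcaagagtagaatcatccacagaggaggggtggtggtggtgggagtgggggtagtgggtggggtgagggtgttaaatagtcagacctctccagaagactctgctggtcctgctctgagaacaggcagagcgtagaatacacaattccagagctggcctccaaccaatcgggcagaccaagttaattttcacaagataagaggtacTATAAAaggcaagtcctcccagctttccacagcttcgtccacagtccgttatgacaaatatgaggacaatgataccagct

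Letters of 5 motifs were searched in the 32 promoters, on both strands except for the TATA box. The FOXA core TGTTTAC was present in 4, those of Ugt1a2, Ugt2b35, Ugt2b37 and Ugt2b38, against 3.65% of all 32851 promoters of the same length. The STAT site TTCNNNGAA was present in 2, those of Ugt1a6a and Ces5a, against 8.30%, and TATAAA between -40 and -15 in Ces3b alone, against 2.11%. The HNF4 core CAAAGTCCA and the CEBP site TTGCGCAA were in none of the 32, against 0.47% and 0.18% of all promoters. The FOXA core was in promoters of members that fell, such as Ugt2b38, and of Ugt2b35, which was not called.

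Of the 39 members, 28 passed the filter of at least 1 CPM in at least 5 livers, 15 of them UDP-glucuronosyltransferases and 13 carboxylesterases. In Ndrg3 LKO livers 23 of these 28 were lower (edgeR adjusted p under 0.05), against 23.0% of the 11208 genes tested. None was higher by edgeR at that threshold or at an unadjusted p under 0.05, and none by DESeq2 or limma, against 25.6% of all genes tested. The members that fell were 11 UDP-glucuronosyltransferases and 12 carboxylesterases, and the 5 that were not called were Ugt1a9, Ugt2b34, Ugt2b35, Ugt2b5 and Ces2e. The median log2 fold change was -2.03 over the 15 and -2.28 over the 13, while the median of all genes tested was 0.03. In 20 of the 28, every Ndrg3 LKO liver was below every wild-type liver, which held for 15.9% of all genes tested, and in none was every Ndrg3 LKO liver above, which held for 15.6%. Without Ndrg3 LKO replicate 5, 24 of 29 members were lower and none higher by edgeR, against 27.2% and 28.4% of 11446 genes, and 1 was higher at an unadjusted p under 0.05. Among the 24, Ugt1a10 passed the filter in these 9 livers only through the wild-type group. Ces4a, which is also among the 23, did so in both sets of livers. In whole-liver RNA, fewer hepatocytes and less RNA per hepatocyte cannot be told apart.

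When the counts were scaled by library size alone, the median of all genes moved to 0.56 and 85.3% of the called genes were higher, against 52.6% with TMM. The signs of Ugt1a9, Ugt2b35, Ugt2b5 and Ces2e turned positive on that scale, none of them called, and Ugt2b34 was called higher. Values below are on the TMM scale.

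**Figure D1:**
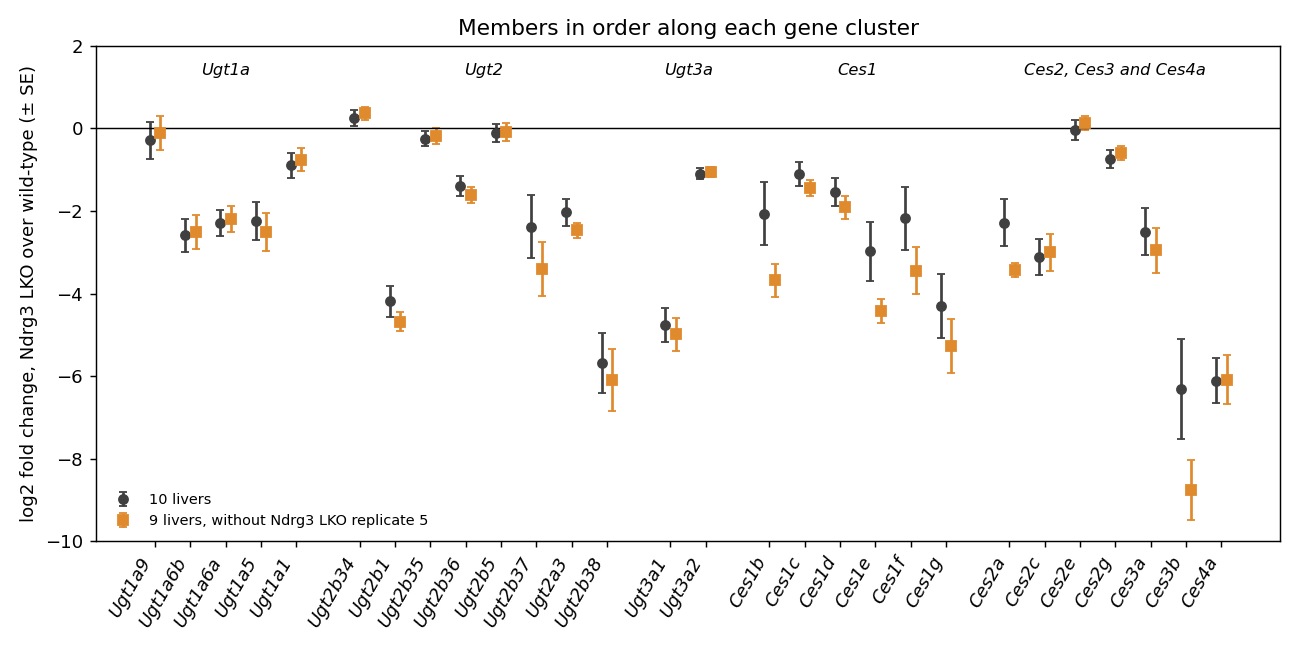
Log2 fold change of Ndrg3 LKO over wild-type livers (vertical axis, bars ± SE of the edgeR fit) for the 28 members tested, ordered along each gene cluster, in all 10 livers (circles) and in the 9 livers without Ndrg3 LKO replicate 5 (squares). Most points lie below 0, down to -6.31 for Ces3b in 10 livers and -8.76 in 9, and Ugt2b34, Ugt2b35, Ugt2b5 and Ces2e lie near 0 beside neighbours that fell.

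Ugt1a genes are built from 1 locus in which each gene has its own first exon and all share the same later exons. Ugt1a1 is the bilirubin UDP-glucuronosyltransferase, and Ugt1a6 and Ugt1a9 enzymes conjugate phenols. Of the 5 Ugt1a genes tested, 4 fell and Ugt1a9 was not called. Since 57.2% to 85.1% of the 100-base stretches of their transcripts occur in other Ugt1a genes, and the locus overlaps Dnajb3 and RP23-324B17.1 on the other strand, the share of each gene in these counts is uncertain. Ugt1a6a and Ugt1a6b are the least separable, with 80.1% and 85.1% shared.

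Ugt1a1 measured 141, 139, 81.5, 159 and 105 CPM in wild-type replicates 1 to 5 and 53.2, 90.02, 110.4, 45.4 and 37.8 CPM in Ndrg3 LKO replicates 1 to 5. The groups overlapped, because Ndrg3 LKO replicates 2 and 3 lay within the wild-type range. A log2 fold change of -0.89 (SE 0.30, edgeR adjusted p = 0.0255), with an exact permutation p of 0.0397 (2-sided, 5 against 5 livers), became -0.76 (SE 0.27, edgeR adjusted p = 0.0338) without replicate 5. The call was lost when Ndrg3 LKO replicate 1 or 4 or wild-type replicate 4 was left out, with edgeR adjusted p of 0.0623, 0.0624 and 0.0619, and on the scale of library size alone (edgeR adjusted p = 0.445).

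Ugt1a9 measured 148, 27.6, 95.4, 166 and 107 CPM in wild-type replicates 1 to 5 and 85.6, 103, 160.2, 58.7 and 38 CPM in Ndrg3 LKO replicates 1 to 5, and its lowest value was that of wild-type replicate 2. The spread within the groups was wider than the difference between them, with a log2 fold change of -0.29 (SE 0.44, edgeR adjusted p = 0.612). Ugt1a6a, by contrast, measured 26.5, 22.6, 13.9, 29.4 and 17.8 CPM in wild-type replicates 1 to 5 and 4.98, 7.57, 4.67, 2.34 and 2.97 CPM in Ndrg3 LKO replicates 1 to 5. Every Ndrg3 LKO liver was below every wild-type liver, and the log2 fold change of -2.28 (SE 0.31, edgeR adjusted p = 0.000181) stood for a level 4.87-fold lower. Ugt1a6b, its near-identical neighbour, had 26.6, 24.8, 15.2, 31.9 and 17.5 CPM in wild-type replicates 1 to 5 and 4.12, 7.86, 3.15, 1.26 and 2.88 CPM in Ndrg3 LKO replicates 1 to 5, a log2 fold change of -2.58 (SE 0.40, edgeR adjusted p = 0.000385). Ugt1a5 was lower in all 5 Ndrg3 LKO livers too, with 13.4, 10.2, 8.48, 14.5 and 5.78 CPM in wild-type replicates 1 to 5 and 2.16, 0.947, 3.69, 0.656 and 3.73 CPM in Ndrg3 LKO replicates 1 to 5 and a log2 fold change of -2.25 (SE 0.45, edgeR adjusted p = 0.00193). Without replicate 5 the log2 fold changes of Ugt1a6a, Ugt1a6b and Ugt1a5 were -2.18, -2.51 and -2.50, and that of Ugt1a9 was -0.11 (SE 0.42, edgeR adjusted p = 0.844).

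**Figure D2:**
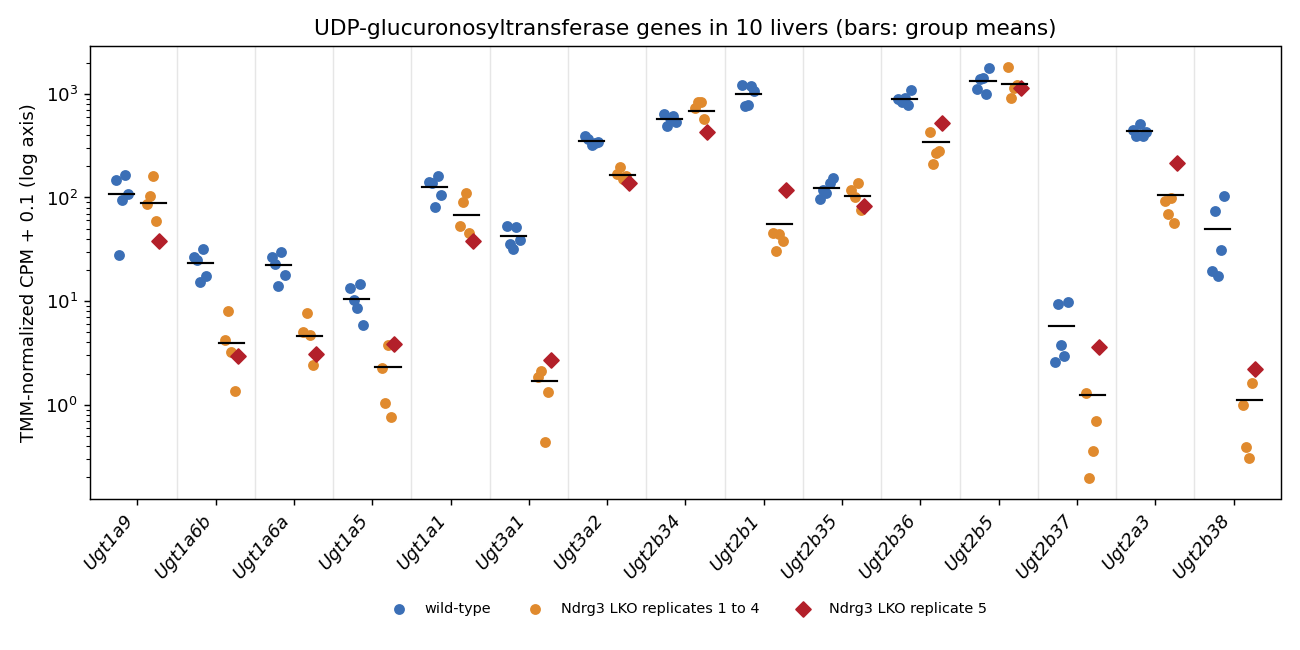
TMM-normalized CPM plus 0.1 (vertical log axis) of the 15 UDP-glucuronosyltransferase genes tested, with 1 point per liver for 5 wild-type livers (blue), Ndrg3 LKO replicates 1 to 4 (orange) and Ndrg3 LKO replicate 5 (red diamond), and group means as bars. Ugt2b1 and Ugt3a1 show the groups far apart, with wild-type livers at 769 to 1226 and 31.7 to 52.8 CPM, while Ugt2b5, Ugt2b34 and Ugt2b35 overlap.

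The Ugt2 cluster held Ugt2b38, which had the lowest log2 fold change of this family, and 3 genes that were not called. Ugt2 enzymes conjugate steroids, bile acids and fatty acids as well as drugs. Along the chromosome the tested genes run Ugt2b34, Ugt2b1, Ugt2b35, Ugt2b36, Ugt2b5, Ugt2b37, Ugt2a3 and Ugt2b38. Of these 8, Ugt2b1, Ugt2b36, Ugt2b37, Ugt2a3 and Ugt2b38 fell, and Ugt2b34, Ugt2b35 and Ugt2b5 were not called. Ugt2b1 and Ugt2b36 thus each lay between a pair of genes that were not called.

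Ugt2b1 measured 1226, 769, 782, 1185 and 1061 CPM in wild-type replicates 1 to 5 and 44.97, 30.5, 44.1, 38.1 and 118 CPM in Ndrg3 LKO replicates 1 to 5. Every Ndrg3 LKO liver was far below the lowest wild-type liver, and replicate 5, at 118 CPM, was the highest of its group. The log2 fold change of -4.19 (SE 0.38, edgeR adjusted p = 1.44e-05) corresponds to a level 18.2-fold lower, and was -4.68 (SE 0.23, edgeR adjusted p = 8.8e-08) without replicate 5. Ugt2b34, the next gene on one side, measured 635, 484, 585, 611 and 529.6 CPM in wild-type replicates 1 to 5 and 737, 826, 830.2, 565 and 424 CPM in Ndrg3 LKO replicates 1 to 5. Ndrg3 LKO replicates 1 to 3 were above every wild-type liver and replicate 5 was below every one, with a log2 fold change of 0.25 (SE 0.20, edgeR adjusted p = 0.312). Without replicate 5 the value of Ugt2b34 was 0.37 (SE 0.15, edgeR adjusted p = 0.0583). On the other side of Ugt2b1, Ugt2b35 had 95.6, 117, 109.8, 137 and 153 CPM in wild-type replicates 1 to 5 and 119, 101, 138, 75.9 and 82.8 CPM in Ndrg3 LKO replicates 1 to 5. These groups overlapped, and the log2 fold change of -0.24 (SE 0.19, edgeR adjusted p = 0.298) was not called, nor was the -0.19 (SE 0.19, edgeR adjusted p = 0.419) without replicate 5.

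Ugt2b36 measured 888, 835, 905, 778 and 1083 CPM in wild-type replicates 1 to 5 and 426, 212, 268, 278 and 528 CPM in Ndrg3 LKO replicates 1 to 5. Its groups did not overlap, with a log2 fold change of -1.39 (SE 0.24, edgeR adjusted p = 0.00081) and -1.61 (SE 0.20, edgeR adjusted p = 5.21e-05) without replicate 5. Ugt2b5, the next gene, measured 1111, 1376, 1428, 1002 and 1754 CPM in wild-type replicates 1 to 5 and 1832, 918, 1127, 1205 and 1136 CPM in Ndrg3 LKO replicates 1 to 5. The highest liver of all 10 was Ndrg3 LKO replicate 1, the groups overlapped, and the log2 fold change of -0.10 (SE 0.22, edgeR adjusted p = 0.722) was not called in all 10 livers or, at -0.082 (SE 0.22, edgeR adjusted p = 0.774), without replicate 5. Per kilobase of exon Ugt2b5 was the most abundant gene of the Ugt2 and Ugt3 clusters in both groups, at 708 CPM per kilobase in wild-type and 660.1 in Ndrg3 LKO livers. Ugt2b36 was second in both groups, at 436 and 166. Ugt2b1 came next in wild-type livers, at 390.3, and at 21.4 in Ndrg3 LKO livers it was below Ugt2b34, Ugt3a2, Ugt2a3 and Ugt2b35.

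Ugt2b38, whose promoter resembles that of Ugt2b5, measured 19.3, 73.96, 17.2, 30.8 and 104 CPM in wild-type replicates 1 to 5 and 0.893, 0.291, 0.206, 1.54 and 2.12 CPM in Ndrg3 LKO replicates 1 to 5. Wild-type replicates 2 and 5 were well above the other 3 of their group, and all 5 Ndrg3 LKO livers were below every wild-type liver. The 10 livers gave a log2 fold change of -5.68 (SE 0.73, edgeR adjusted p = 0.000121) and the 9 gave -6.10 (SE 0.76, edgeR adjusted p = 4.62e-05) without replicate 5. Of the 100-base stretches of Ugt2b5 and Ugt2b38, 24.3% and 24.2% occur in a neighbour of the cluster, so part of the reads of these genes cannot be told apart. Ugt2b37 was low, with 2.47 to 9.78 CPM in wild-type and 0.0971 to 3.54 CPM in Ndrg3 LKO livers, and wild-type replicates 2 and 5 were again the highest. Its log2 fold change of -2.38 (SE 0.76, edgeR adjusted p = 0.0219), with an exact permutation p of 0.0238, 2-sided, 5 against 5 livers, became -3.40 (SE 0.66, edgeR adjusted p = 0.00104) without replicate 5. That call was lost when Ndrg3 LKO replicate 4 or wild-type replicate 2 or 5 was left out, with edgeR adjusted p of 0.0539, 0.0528 and 0.0527.

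Ugt2a3, a gene of the bile acid conjugating Ugt2a type that lies between Ugt2b37 and Ugt2b38, measured 449, 393, 514, 389 and 425 CPM in wild-type replicates 1 to 5 and 92.3, 69.7, 97.7, 56.1 and 215 CPM in Ndrg3 LKO replicates 1 to 5. Replicate 5 was well above the other Ndrg3 LKO livers and still below the lowest wild-type liver. All 10 livers gave a log2 fold change of -2.03 (SE 0.32, edgeR adjusted p = 0.000418), which became -2.47 (SE 0.19, edgeR adjusted p = 1.21e-06) without it.

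The Ugt3a pair uses sugars other than glucuronic acid, such as N-acetylglucosamine or glucose. Ugt3a1 measured 52.8, 35.4, 31.7, 51.9 and 39.1 CPM in wild-type replicates 1 to 5 and 1.76, 2.04, 0.335, 1.23 and 2.60 CPM in Ndrg3 LKO replicates 1 to 5, so that no Ndrg3 LKO liver came near the wild-type range. Its log2 fold change of -4.75 (SE 0.41, edgeR adjusted p = 9.63e-06) corresponds to a level 26.97-fold lower. Ugt3a2, its neighbour, measured 389.5, 363, 318, 333 and 346 CPM in wild-type replicates 1 to 5 and 168, 195, 152, 162 and 138 CPM in Ndrg3 LKO replicates 1 to 5. Those groups were also separate, at a smaller distance, with a log2 fold change of -1.10 (SE 0.13, edgeR adjusted p = 8.13e-05), a level 2.15-fold lower. Without replicate 5 the values were -4.98 for Ugt3a1 and -1.06 for Ugt3a2.

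Carboxylesterase genes of the Ces1 group encode the major esterases of mouse liver and plasma. Ces1c is the abundant esterase of mouse plasma, Ces1d the triacylglycerol hydrolase that helps load lipoproteins, Ces1e the protein called egasyn that holds beta-glucuronidase in the endoplasmic reticulum, and Ces1g an esterase linked to lipid secretion. All 6 Ces1 genes tested fell.

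Ces1g fell furthest of the 6 and measured 352, 237, 359, 300.4 and 243 CPM in wild-type replicates 1 to 5 and 20.96, 1.94, 4.85, 3.34 and 44.8 CPM in Ndrg3 LKO replicates 1 to 5. Every Ndrg3 LKO liver was below every wild-type liver, the log2 fold change of -4.31 (SE 0.78, edgeR adjusted p = 0.00101) corresponds to a level 19.8-fold lower, and it was -5.28 (SE 0.65, edgeR adjusted p = 4.5e-05) without replicate 5. Ces1e measured 256, 192, 317, 209 and 226 CPM in wild-type replicates 1 to 5 and 18.3, 6.92, 9.69, 10.1 and 108 CPM in Ndrg3 LKO replicates 1 to 5. Its groups did not overlap, although replicate 5 was far above the other Ndrg3 LKO livers, and the log2 fold change of -2.98 (SE 0.71, edgeR adjusted p = 0.00473) moved to -4.43 (SE 0.30, edgeR adjusted p = 5.1e-07) without that liver.

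Ces1f, a second triacylglycerol hydrolase, measured 511, 436, 524, 451 and 460.4 CPM in wild-type replicates 1 to 5 and 100.02, 12.6, 12.5, 51.3 and 350.0 CPM in Ndrg3 LKO replicates 1 to 5. Replicate 5 lay at 73.5% of the wild-type mean and the mean of the other 4 at 9.26%. The log2 fold change of -2.18 (SE 0.77, edgeR adjusted p = 0.0332), with an exact permutation p of 0.00794, the smallest that 5 against 5 livers can give, became -3.45 (SE 0.57, edgeR adjusted p = 0.000384) without replicate 5. Leaving out wild-type replicate 1 or 3 or Ndrg3 LKO replicate 1 or 4 ended the call of Ces1f, with edgeR adjusted p of 0.055, 0.0558, 0.0663 and 0.075.

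Ces1b measured 188, 124, 181, 142 and 113 CPM in wild-type replicates 1 to 5 and 20.5, 4.25, 8.89, 13.4 and 132 CPM in Ndrg3 LKO replicates 1 to 5. Replicates 1 to 4 were below every wild-type liver and replicate 5 was within the wild-type range, so the groups overlapped. A log2 fold change of -2.07 (SE 0.76, edgeR adjusted p = 0.0402) over all 10 livers, with an exact permutation p of 0.0238, 2-sided, 5 against 5 livers, became -3.68 (SE 0.39, edgeR adjusted p = 1.56e-05) without replicate 5. Leaving out any other liver ended that call, with edgeR adjusted p of 0.0507 to 0.0874.

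Ces1c, the most abundant carboxylesterase per kilobase of exon, measured 4063, 3056, 3302, 3152 and 3190.4 CPM in wild-type replicates 1 to 5 and 1456, 773, 1408, 1327 and 2822 CPM in Ndrg3 LKO replicates 1 to 5. All 5 Ndrg3 LKO livers were below every wild-type liver, replicate 5 only just, with a log2 fold change of -1.11 (SE 0.29, edgeR adjusted p = 0.0081) and -1.45 (SE 0.20, edgeR adjusted p = 0.000108) without replicate 5. Ces1d measured 1955, 1434, 2208, 1534 and 1361 CPM in wild-type replicates 1 to 5 and 749, 361, 298, 418 and 1084 CPM in Ndrg3 LKO replicates 1 to 5, with no overlap and a log2 fold change of -1.54 (SE 0.34, edgeR adjusted p = 0.0032), or -1.91 (SE 0.27, edgeR adjusted p = 0.000136) without replicate 5. Per kilobase, Ces1c was at 1443 CPM in wild-type and 670.3 in Ndrg3 LKO livers, and Ces1d at 717 and 246.

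**Figure D3:**
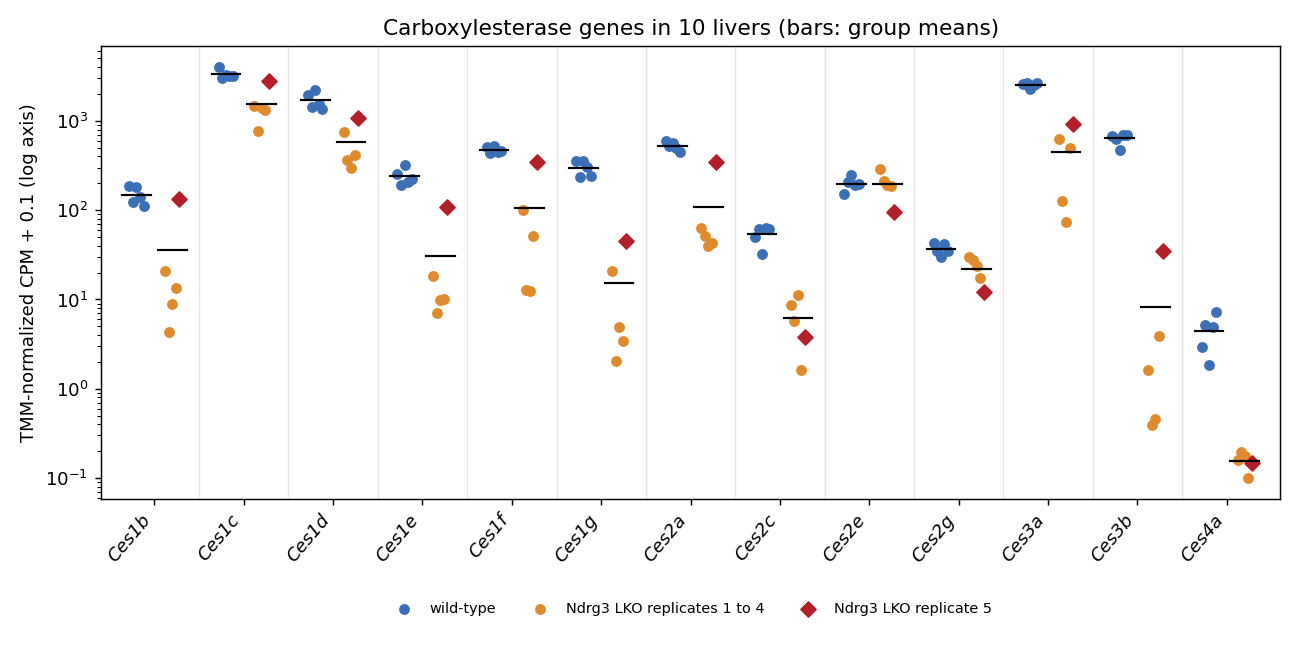
TMM-normalized CPM plus 0.1 (vertical log axis) of the 13 carboxylesterase genes tested, with 1 point per liver for 5 wild-type livers (blue), Ndrg3 LKO replicates 1 to 4 (orange) and Ndrg3 LKO replicate 5 (red diamond), and group means as bars. Replicate 5 lies close to or within the wild-type points for Ces1b, Ces1c, Ces1f and Ces2a, and among the other Ndrg3 LKO points for Ces2c and Ces4a.

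The Ces2 genes, whose enzymes favour esters with a large alcohol group, were less uniform. Of 4 tested, Ces2a, Ces2c and Ces2g fell and Ces2e was not called. Ces2a measured 597, 519, 558, 501 and 452 CPM in wild-type replicates 1 to 5 and 62.6, 50.9, 39.7, 43.1 and 346 CPM in Ndrg3 LKO replicates 1 to 5. No Ndrg3 LKO liver reached the wild-type range, replicates 1 to 4 lay close together and replicate 5 far above them. A log2 fold change of -2.28 (SE 0.57, edgeR adjusted p = 0.00659) over all 10 livers was -3.43 (SE 0.18, edgeR adjusted p = 1.16e-07) without replicate 5. Ces2c measured 49.6, 61.9, 32.5, 62.9 and 61.2 CPM in wild-type replicates 1 to 5 and 8.64, 5.70, 11.1, 1.54 and 3.68 CPM in Ndrg3 LKO replicates 1 to 5. Here replicate 5 lay within the other Ndrg3 LKO livers, and the log2 fold change of -3.12 (SE 0.43, edgeR adjusted p = 0.000193) hardly moved without it, to -3.00. Of its 100-base stretches 57.9% occur in the pseudogene Ces2d-ps, which held at most 15 counts in any liver.

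Ces2g measured 42.9, 34.7, 29.9, 41.6 and 34.9 CPM in wild-type replicates 1 to 5 and 29.8, 27.8, 23.4, 17.5 and 12.04 CPM in Ndrg3 LKO replicates 1 to 5, with the highest Ndrg3 LKO liver just under the lowest wild-type liver. Its log2 fold change of -0.73 (SE 0.22, edgeR adjusted p = 0.017) was -0.59 (SE 0.17, edgeR adjusted p = 0.0111) without replicate 5, and on the scale of library size alone it was not called (edgeR adjusted p = 0.613, exact permutation p on the TMM scale 0.00794). Ces2e measured 151, 209, 248, 192 and 195 CPM in wild-type replicates 1 to 5 and 286, 212, 189, 187 and 95.9 CPM in Ndrg3 LKO replicates 1 to 5. The groups overlapped, with replicate 5 below all other livers and replicate 1 above them, and the log2 fold change of -0.035 (SE 0.24, edgeR adjusted p = 0.916) became 0.12 (SE 0.17, edgeR adjusted p = 0.563) without replicate 5.

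The Ces3 pair and Ces4a lie at the far end of the same cluster. Ces3a and Ces3b are lipases of the liver endoplasmic reticulum that are related to the triacylglycerol hydrolases. Ces3b measured 683, 625, 477, 693 and 702 CPM in wild-type replicates 1 to 5 and 1.53, 0.291, 0.361, 3.80 and 34.8 CPM in Ndrg3 LKO replicates 1 to 5. All Ndrg3 LKO livers were far below the wild-type livers and replicate 5 was the highest of them. The log2 fold change of -6.31 (SE 1.22, edgeR adjusted p = 0.0015) corresponds to a level 79.4-fold lower, and without replicate 5 it was -8.76 (SE 0.73, edgeR adjusted p = 2.37e-06), or 434-fold lower. Ces3a, the second most abundant carboxylesterase per kilobase in wild-type livers, measured 2568, 2663, 2275, 2504 and 2683 CPM in wild-type replicates 1 to 5 and 626, 126, 74.3, 498 and 921 CPM in Ndrg3 LKO replicates 1 to 5. The groups did not overlap and the Ndrg3 LKO livers differed among themselves by more than the wild-type livers did, with a log2 fold change of -2.50 (SE 0.56, edgeR adjusted p = 0.00352) and -2.95 (SE 0.54, edgeR adjusted p = 0.000754) without replicate 5. Of the 100-base stretches of Ces3a and Ces3b, 8.64% and 7.08% occur in the other gene.

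Ces4a was low in wild-type livers, at 1.73 to 7.09 CPM, with 31 to 119 counts a liver, and held 0 to 4 counts a liver in the Ndrg3 LKO group. A fitted log2 fold change of -6.11 (SE 0.54, edgeR adjusted p = 1.14e-05) depends on how the fit treats such low counts. Ces4a passed the filter through the wild-type livers alone, and without replicate 5 the fitted value was -6.08. With the summed counts of 410 and 10 scaled to the TMM library sizes, wild-type livers were 74.03-fold higher, with an exact 95% interval of 39.8 to 156 that covers counting error only.

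Under the filter lay 11 members. Ugt1a10 held 10 to 39 counts a liver in wild-type and 1 to 6 in Ndrg3 LKO livers, a ratio of 14.4 (exact 95% counting interval 8.56 to 26.03) once the summed counts of 128 and 16 were scaled to the TMM library sizes. In the 9 livers without replicate 5 it passed the filter, but only through wild-type livers. Ces2b held 7 to 69 counts in wild-type and 0 to 3 in Ndrg3 LKO livers, and its summed counts of 165 and 6 gave a ratio of 49.7 (22.3 to 137) on the same scale. Ces1a held 5 to 13 and 0 to 18 counts. Ugt1a7c, Ugt1a2, Ces2d-ps, Ces2f and Ces2h held at most 15 counts in any liver. Ugt2a1, Ugt2a2 and Ces5a held 0 counts in all 10 livers, and with 3 counts as the upper limit that a count of 0 allows, each was below 0.144 CPM of the unscaled library in every liver. The promoter of Ugt2a2 lies within Ugt2a1, and reads that fit both genes may have been left out of the counts. The GENCODE annotation held Ces5a 2 times and Ugt2a2 not at all. For these genes 0 counts need not mean that no RNA was present.

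Ndrg3 LKO replicate 5 did not take the same place for all members. Among the 12 carboxylesterases that fell, it lay between the wild-type livers and the other Ndrg3 LKO livers for 8, within the wild-type range for Ces1b, within the range of the other Ndrg3 LKO livers for Ces2c and Ces4a and below them for Ces2g. Among the 11 UDP-glucuronosyltransferases that fell, it lay between for 6, within the wild-type range for Ugt2b37, within the other Ndrg3 LKO livers for Ugt1a6a and Ugt1a6b and below them for Ugt1a1 and Ugt3a2. Relative to the mean of the other 4, replicate 5 was 23.3 times as high for Ces3b, 11.2 times for Ces1b and 7.04 times for Ces2a, but 0.506 times for Ugt1a1 and 0.546 times for Ces2c. Of all genes called lower, 20.1% had replicate 5 within the wild-type range. The sum of the hepatocyte genes and the share of the most abundant genes, given above, also had replicate 5 near the wild-type livers. Alb alone gave 108020 CPM of that sum in replicate 5. Gene by gene, replicate 5 was below every wild-type liver for Apoa1, Apob, Trf, Fgb and Fga. It was within the wild-type range for Alb, Apoa2 and Ttr, and above that range for Apoh, Ahsg, Hpx and Ambp. The part of these genes in the values of the members was not tested.

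**Figure D4:**
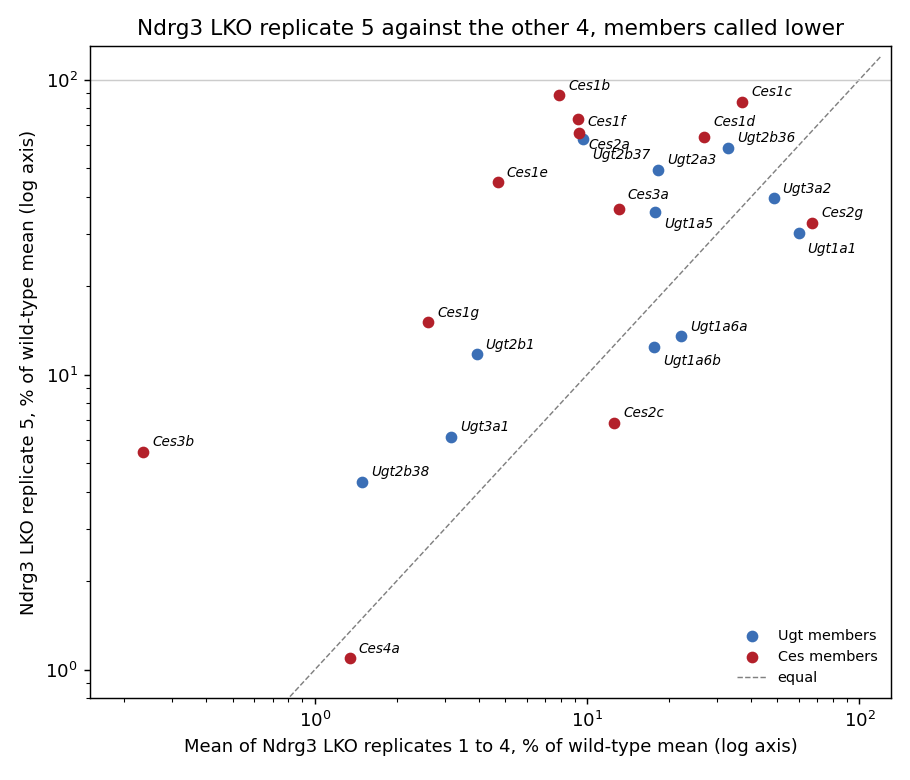
Level of Ndrg3 LKO replicate 5 (vertical axis) against the mean of Ndrg3 LKO replicates 1 to 4 (horizontal axis), both as % of the wild-type mean on log axes, for the 23 members called lower in 10 livers. Points above the dashed line of equal levels, such as Ces3b at 0.235% and 5.48% and Ces1b at 7.88% and 88.3%, have replicate 5 closer to wild-type.

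Summed over their 20 genes, UDP-glucuronosyltransferases measured 4679.6 to 5758 CPM in wild-type livers, 2492 to 3573 CPM in Ndrg3 LKO replicates 1 to 4 and 2736 CPM in replicate 5. Carboxylesterases measured 9599 to 11422 CPM, 1583 to 3379 CPM and 5955 CPM. On this TMM scale both sums were lower in every Ndrg3 LKO liver than in any wild-type liver, and replicate 5 was among its group for the first family and well above it for the second. As a share of all counts, with no TMM adjustment, the carboxylesterases held 0.782% to 0.923% in wild-type and 0.214% to 0.537% in Ndrg3 LKO livers. The UDP-glucuronosyltransferases held 0.387% to 0.463% and 0.247% to 0.427% by that measure, and these groups overlapped. The make-up differed as well, since Ugt2b5 and Ugt2b34 together held 32.8% to 41.0% of the UDP-glucuronosyltransferase counts in wild-type and 57.0% to 71.9% in Ndrg3 LKO livers. Ugt2b1 went from 15.9% to 24.1% to 1.19% to 4.31% of them. Among carboxylesterase counts, Ces1c held 31.4% to 35.6% in wild-type and 43.1% to 67.7% in Ndrg3 LKO livers, and Ces3a 21.6% to 27.7% and 3.58% to 19.3%. These sums and shares are descriptions, with no test.

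**Figure D5:**
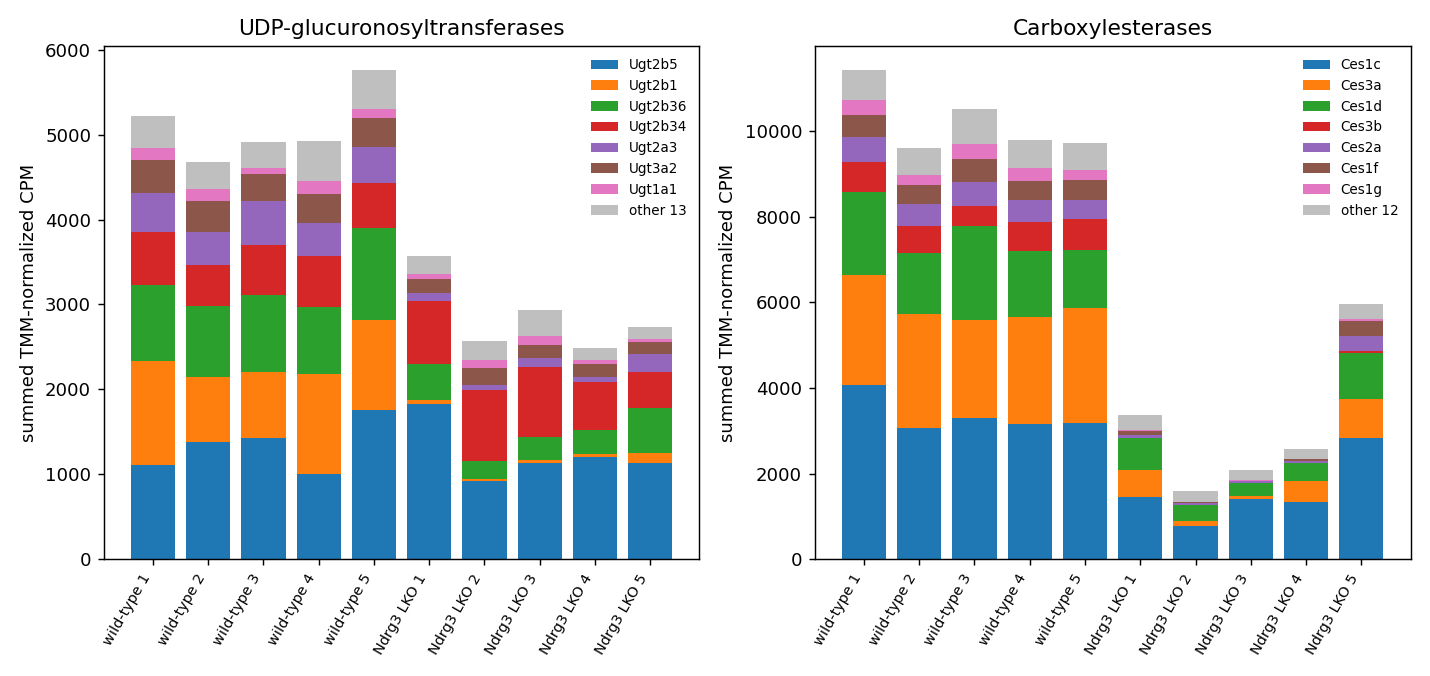
Summed TMM-normalized CPM (vertical axis) of the UDP-glucuronosyltransferases (left) and carboxylesterases (right) in each of the 10 livers, stacked by the 7 most abundant genes of each family in wild-type livers and the rest. The bars of all Ndrg3 LKO livers are shorter, the Ugt2b1 and Ces3a segments shrink, and the carboxylesterase bar of Ndrg3 LKO replicate 5 is the tallest of its group.

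Genes that supply or remove the sugar of glucuronidation were examined next to the members. Of 5 tested, 2 fell and none rose (23.0% and 25.6% of all genes), with a median log2 fold change of -0.49. Ugp2, which makes UDP-glucose, measured 348 ± 52.7 CPM in wild-type and 248 ± 38.7 CPM in Ndrg3 LKO livers (mean ± SD, n = 5 each) and had a log2 fold change of -0.49 (SE 0.16, edgeR adjusted p = 0.0224). Slc35d1, which carries UDP-glucuronic acid into the endoplasmic reticulum, had a log2 fold change of -0.84 (SE 0.21, edgeR adjusted p = 0.00607) with no overlap between the groups. Ugdh, which oxidizes UDP-glucose to UDP-glucuronic acid, measured 155, 169, 199, 158 and 171 CPM in wild-type replicates 1 to 5 and 136, 53.7, 106, 26.9 and 241 CPM in Ndrg3 LKO replicates 1 to 5. Replicates 1 to 4 were below every wild-type liver and replicate 5 above them, with a log2 fold change of -0.60 (SE 0.44, edgeR adjusted p = 0.277) and -1.09 (SE 0.36, edgeR adjusted p = 0.0234) without replicate 5. Gusb, the beta-glucuronidase that removes the sugar and is held in place by the product of Ces1e, had a log2 fold change of -0.19 (SE 0.17, edgeR adjusted p = 0.374), and Abhd10, which cleaves acyl glucuronides, log2 fold change of 0.11 (SE 0.19, edgeR adjusted p = 0.651).

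In the path of bilirubin, 1 of 6 genes rose and 2 fell, against 25.6% higher and 23.0% lower among all genes tested. Hmox1, which breaks down heme, measured 11.8, 17.5, 20.6, 9.85 and 21.7 CPM in wild-type replicates 1 to 5 and 38.1, 22.9, 27.2, 32.4 and 40.9 CPM in Ndrg3 LKO replicates 1 to 5, above every wild-type liver in all 5 Ndrg3 LKO livers, with a log2 fold change of 0.99 (SE 0.24, edgeR adjusted p = 0.00511). Slco1b2, which takes up bilirubin and its conjugates from blood, measured 932, 1036, 1223, 1108 and 1209 CPM in wild-type replicates 1 to 5 and 219, 85.6, 145, 88.8 and 190.0 CPM in Ndrg3 LKO replicates 1 to 5, with no overlap and a log2 fold change of -2.92 (SE 0.28, edgeR adjusted p = 1.83e-05). Abcc2, which exports bilirubin glucuronide into bile, had a log2 fold change of -1.21 (SE 0.30, edgeR adjusted p = 0.00658). Hmox2, Blvra and Blvrb, the other heme oxygenase and the biliverdin reductases, had log2 fold changes of -0.22, 0.24 and 0.22 and were not called in all 10 livers. Blvrb was called higher without replicate 5, at 0.33 (SE 0.12, edgeR adjusted p = 0.038).

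Of 7 transporters of glucuronides and related anions, which include Abcc2 and Slco1b2, 4 fell and 1 rose, with a median log2 fold change of -1.21, against 23.0% and 25.6% of all genes tested. Abcc3, which exports glucuronides to blood, had a log2 fold change of -1.47 (SE 0.25, edgeR adjusted p = 0.000681), and Slco1a1, an uptake carrier, log2 fold change of -2.65 (SE 0.41, edgeR adjusted p = 0.000405). Abcc4, another exporter to blood, passed the filter mainly through Ndrg3 LKO livers, at 0.536 to 1.37 CPM in wild-type and 1.88 to 5.62 CPM in Ndrg3 LKO livers, and had a log2 fold change of 1.61 (SE 0.37, edgeR adjusted p = 0.00405). Abcg2 and Slco1a4 were not called, with a log2 fold change of -0.44 (SE 0.18, edgeR adjusted p = 0.0676) and a log2 fold change of 0.65 (SE 0.40, edgeR adjusted p = 0.198).

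Among 11 transcription factors known to regulate these families, 3 fell and 2 rose, with a median log2 fold change of 0.11. These shares lie near those of all genes tested, 23.0% lower and 25.6% higher. Those that fell were Nr1i3, the constitutive androstane receptor CAR with a log2 fold change of -1.73 (SE 0.38, edgeR adjusted p = 0.00304), Ppara, the fatty acid receptor with a log2 fold change of -1.50 (SE 0.17, edgeR adjusted p = 4.82e-05), and Hnf4a, a hepatocyte nuclear factor with a log2 fold change of -1.58 (SE 0.21, edgeR adjusted p = 0.000134). Those that rose were Nfe2l2, the oxidative stress factor NRF2 with a log2 fold change of 2.21 (SE 0.28, edgeR adjusted p = 0.000111), and Foxa2, of the FOXA family with a log2 fold change of 0.79 (SE 0.17, edgeR adjusted p = 0.00281). Hnf4a measured 682, 685, 590.3, 794 and 694 CPM in wild-type replicates 1 to 5 and 181, 227, 194, 187 and 362 CPM in Ndrg3 LKO replicates 1 to 5, and Nfe2l2 45.4, 38.2, 43.6, 44.1 and 37.4 CPM in wild-type replicates 1 to 5 and 215, 256, 207, 217 and 69.4 CPM in Ndrg3 LKO replicates 1 to 5. Replicate 5 was the Ndrg3 LKO liver nearest to wild-type for both, and also for Ppara and Foxa2. For Nr1i3 it was the furthest, at 13.5 CPM against 21.1 to 47.7 CPM in Ndrg3 LKO replicates 1 to 4. Ahr, Arnt, Nr1i2, Rxra, Nr1h4 and Foxa1 were not called, with log2 fold changes of -0.21 to 0.23.

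Most markers of macrophages, stellate cells and endothelial cells were higher in Ndrg3 LKO livers. Of all genes tested, 25.6% were higher and 23.0% lower. All 7 macrophage markers tested rose (median log2 fold change 1.32), and their sum was 58.2 to 139.9 CPM in wild-type, 138 to 436 CPM in Ndrg3 LKO replicates 1 to 4 and 167 CPM in replicate 5. Of 7 stellate cell markers 4 rose, with sums of 109.6 to 175, 237 to 308 and 239 CPM. Des, Acta2 and Reln were not called, with log2 fold changes of -0.62, 1.24 and 0.39. Of 6 endothelial markers 5 rose, with sums of 50.4 to 65.9, 110.2 to 141 and 104 CPM, and Stab2 was not called. With the replicate number as a block, 5 of the 7 macrophage markers were called. Of 5 cholangiocyte markers tested, Spp1 rose and Sox9 fell, and Epcam was called higher without replicate 5 (log2 fold change 1.17, edgeR adjusted p = 0.0315). The 7 lymphocyte markers were all under the filter and summed to 1.25 to 2.59 CPM in wild-type and 1.36 to 6.75 CPM in Ndrg3 LKO livers. Of the 8 pancreas and gut markers, Cpa1 and Pnlip were at or near 0 in all livers, and Cela1 and Fabp2, which liver also expresses, fell. Vil1 went the other way, at 0.230 to 0.394 CPM in wild-type and 0.708 to 3.54 CPM in Ndrg3 LKO livers. It was under the filter in 10 livers. Without replicate 5 it was called higher, but passed the filter only through Ndrg3 LKO livers. Ctrb1, Lct and Cdh17 were under the filter in both sets of livers. Of the 12 general hepatocyte genes 8 fell, against 23.0% of all genes tested, with a median log2 fold change of -1.15. Without replicate 5 this was 10 of 12, against 27.2%. Of the 15 tested UDP-glucuronosyltransferases and 13 carboxylesterases, none was called higher in either set of livers, and the part of cell composition in their values was not tested.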

How the data were processed

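Liver RNA of 5 wild-type and 5 Ndrg3 LKO mice was sequenced by the authors as stranded mRNA libraries with paired reads of 100 bases. The deposited values are read counts per gene, which the authors obtained with STAR's counting on mm9. The methods give STAR 2.5.1, and the submitters' processing notes list STAR 2.7.3a, Trim Galore 0.6.4 and Cufflinks 2.2.1. The annotation and strand setting were not given in the sources used here. The files are named CPM but hold whole numbers with unequal totals, so they were used as raw counts. STAR's counting usually leaves out reads that fit several places or several genes.

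Genes that reached 1 CPM in 5 or more livers (4 or more when a liver was left out) were fitted together with edgeR 4.0.16 in R 4.3.3, using TMM sizes and the quasi-likelihood test, with Benjamini-Hochberg adjustment over all genes tested and a threshold of 0.05. Standard errors came from the same fit. Exact permutation tests were 2-sided on log2(CPM + 1), in SciPy 1.17.1, and 0.00794 is the smallest p that 5 against 5 livers allow. DESeq2 1.42.0 and limma 3.58.1, other scalings, no filter, a replicate block and leaving out each liver were alternatives. On simulated counts for 11208 genes the edgeR fit recovered 161 of 200 changed genes with 5 false calls. That simulation changed far fewer genes than the 5443 called here, evenly in both directions, and held no outlying liver. It therefore did not test the TMM centring under wide change or the effect of Ndrg3 LKO replicate 5. Transcripts and positions came from the GENCODE annotation of NCBIM37 (mm9), which held 37 of the 39 members once. The labels do not say that livers with the same number belong together, and no 2 libraries of a group were alike within sampling noise. Counts have no molecular identifiers, so intervals and limits cover counting error only. Members and gene lists were chosen with earlier results of these data known. Every member that passed the filter is named. Values in every liver are given for members with a mean of at least 50 CPM in either group, and for other called members without overlap and at least 5 CPM in the higher group. The genes Xist, Ddx3y and Eif2s3y were added after their values were seen. The replicates are separate livers by their labels. Another gene of the regulator list is not reported here.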

Additional observations from a re-analysis of the deposited data

Results flagged for a closer look

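Each group of 5 livers was checked, for the 28 members tested, for a liver whose gap to the nearest other was large against the whole range of the group (Dixon's 95% limit), and 8 of 56 groups held one. If the groups were independent, chance would give about 1 in 20. All members were measured in the same livers, so a divergent liver can be counted for many members. The count of 8 therefore cannot be judged against that rate. Of the 8, 7 were Ndrg3 LKO replicate 5, higher than the other 4 of its group and already described above as standing apart. It measured 118 CPM for Ugt2b1, 215 CPM for Ugt2a3, 132 CPM for Ces1b, 108 CPM for Ces1e, 350.0 CPM for Ces1f, 346 CPM for Ces2a and 34.8 CPM for Ces3b. The eighth was wild-type replicate 1, which was the highest of its group for Ces1c, at 4063 CPM. The cause was not tested.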

How the results depend on the processing

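The counts of members that fell, 11 UDP-glucuronosyltransferases and 12 carboxylesterases, stayed within 1.5 times under all alternatives, at 10 to 12 and 10 to 13. The exception among counts was the scale of library size alone, where 1 UDP-glucuronosyltransferase, Ugt2b34, was called higher instead of none (log2 fold change 0.82, edgeR adjusted p = 0.0137). On that scale, where the median of all genes was 0.56, the log2 fold changes of Ugt1a9, Ugt2b35, Ugt2b5 and Ces2e reversed to 0.29, 0.30, 0.43 and 0.53, and the calls of Ugt1a1 and Ces2g were lost. Leaving out single livers moved Ces2e between -0.21 and 0.12 without a call. It ended calls for Ugt1a1, Ugt2b37, Ces1b and Ces1f in 3, 3, 9 and 4 of 10 cases, and for no other member. DESeq2, limma, median-of-ratios scaling and no filter on low counts kept all 28 members on the same side of the threshold. With the replicate block, 4412 genes were called instead of 5443, and the 28 members again kept their calls, 11 and 12 lower and none higher. Same-numbered livers did not deviate together (correlations -0.357 to 0.0363), so the numbers were not treated as pairs. Among the gene lists, the block left 5 macrophage markers higher instead of 7, 5 stellate cell markers instead of 4, no cholangiocyte marker instead of 1 and 2 female-listed genes instead of 3. Lower were 4 esterases instead of 5, 2 receptor targets instead of 3 and 1 of 5 sugar supply genes instead of 2, and of the latter without Ndrg3 LKO replicate 5 it was 3. That omission also raised the genes called higher from 1 to 2 in the bilirubin and cholangiocyte lists and from 0 to 1 in the pancreas and gut list. Both the block and that omission ended the calls of the 2 esterases that rose. Depth limits the 11 members under the filter, and shared sequence limits the Ugt1a genes, Ugt2b5, Ugt2b38 and Ces2c.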

Other observations

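Among 13 other esterases and lipases of the liver tested, 5 fell and 2 rose, with a median log2 fold change of -0.37 (23.0% and 25.6% of all genes tested were lower and higher). Bphl, a hydrolase that activates the prodrug valacyclovir, was below every wild-type liver in all 5 Ndrg3 LKO livers, with a log2 fold change of -1.13 (SE 0.13, edgeR adjusted p = 4.69e-05). Lipc, hepatic lipase, Mgll, monoglyceride lipase, and Lipe, hormone-sensitive lipase, also had groups without overlap, with a log2 fold change of -0.93 (SE 0.16, edgeR adjusted p = 0.000713), -0.71 (SE 0.16, edgeR adjusted p = 0.00394) and -0.90 (SE 0.22, edgeR adjusted p = 0.0055). Pon1, the plasma paraoxonase, fell with overlapping groups and a log2 fold change of -0.48 (SE 0.16, edgeR adjusted p = 0.0269). Bche, butyrylcholinesterase, and Pon2, a paraoxonase of cells, rose, with a log2 fold change of 0.46 (SE 0.16, edgeR adjusted p = 0.0332) and 0.35 (SE 0.13, edgeR adjusted p = 0.036). Neither was called without Ndrg3 LKO replicate 5 (edgeR adjusted p = 0.0571 and 0.0585). Aadac, arylacetamide deacetylase, which shares substrates with carboxylesterases, was not called in 10 livers, with a log2 fold change of -0.49 (SE 0.20, edgeR adjusted p = 0.066), and was called lower without replicate 5, at -0.67 (SE 0.17, edgeR adjusted p = 0.00537). Nceh1, Esd, Pon3, Lipa and Pnpla2 were not called in either set of livers.

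Target genes of the receptors that induce both families went in both directions, with 5 of 11 tested higher and 3 lower, against 25.6% and 23.0% of all genes tested. Cyp2b9, Cyp1a1 and Gsta1 were among the 5. Cyp2b9 passed the filter only through Ndrg3 LKO livers, and Cyp1a1 and Gsta1 mainly so, so the count of genes higher carries no weight. Cyp1a2 fell, with a log2 fold change of -1.72 (SE 0.39, edgeR adjusted p = 0.00361), while Cyp1a1, another target of the aryl hydrocarbon receptor, rose from 0.179 to 1.15 CPM to 0.614 to 44.3 CPM, with a log2 fold change of 4.04 (SE 1.002, edgeR adjusted p = 0.00607) and replicate 5 at the lower end. Cyp4a14 rose and Cyp4a10 was called lower, both targets of the fatty acid receptor, with a log2 fold change of 2.25 (SE 0.62, edgeR adjusted p = 0.011) and -1.47 (SE 0.51, edgeR adjusted p = 0.03). The groups of Cyp4a10 overlapped, at 172 to 1548 CPM in wild-type and 140 to 564 CPM in Ndrg3 LKO livers. Its exact permutation p was 0.0794. Nqo1 and Gsta1, targets of NRF2, rose, with a log2 fold change of 1.73 (SE 0.32, edgeR adjusted p = 0.00115) and 3.36 (SE 0.65, edgeR adjusted p = 0.00154). Cyp3a13 fell, with a log2 fold change of -0.76 (SE 0.21, edgeR adjusted p = 0.0101), and Cyp3a11 and Tiparp were not called. Cyp2b10, the usual reporter of CAR, measured 14.7, 3.82, 26.99, 3.82 and 1.13 CPM in wild-type replicates 1 to 5 and 8.44, 4.51, 11.2, 1.71 and 89.9 CPM in Ndrg3 LKO replicates 1 to 5. Its value rested on replicate 5, the highest of all livers, and went from 1.19 (SE 1.01, edgeR adjusted p = 0.35) to -0.65 (SE 0.75, edgeR adjusted p = 0.483) without it, neither of them called.

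Of 10 genes listed as higher in male than in female liver, 9 passed the filter, and in each of the 9 every Ndrg3 LKO liver was below every wild-type liver. Their median log2 fold change was -3.19, and such separation held for 15.9% of all genes tested. The tenth, Moxd1, was under the filter, at 0.0558 to 23.8 CPM in wild-type and 0 to 0.0285 CPM in Ndrg3 LKO livers. Of 12 genes listed as higher in female liver, 3 passed the filter, Cyp2b9 only through Ndrg3 LKO livers and Cyp2a4 largely so, and a count of calls among such genes carries no weight. Cyp2b9, also a CAR target, measured 0.0489 to 0.225 CPM in wild-type and 3.17 to 109 CPM in Ndrg3 LKO livers. Cyp2a4 measured 0.538 to 2.34 CPM in wild-type livers, 32.3 to 103 CPM in Ndrg3 LKO replicates 1 to 4 and 1700.3 CPM in replicate 5. Cyp17a1 had a log2 fold change of 2.36 (SE 0.69, edgeR adjusted p = 0.0148) and 0.97 (SE 0.29, edgeR adjusted p = 0.0135) without replicate 5, which was again the highest, at 291 CPM. Cyp3a44 passed the filter without replicate 5, only through Ndrg3 LKO livers, and the other 8 were under it in both sets of livers. The labels give no sex. In all 10 livers Xist, the RNA of the inactive X chromosome, was at most 0.112 CPM, and the Y-linked genes Ddx3y and Eif2s3y were at least 46.0 and 29.2 CPM. The relation of the members to these genes was not tested.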
